A study of Mus musculus with 6 samples.

Results

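Nrcam, Stmn2 and Adgrb1 are genes best known from neurons, and all 3 are among the 109 genes of the deposited table. They were picked from it by gene symbol. Every gene in that table had been selected by the authors because it differed between the same 6 libraries, so the differences described here are the ones that put the genes in the table, and no test of them is given. The libraries came from bone marrow macrophages (BMMs), which were flushed from the hind legs of C57BL/6 mice (C57BL/6J in the methods) aged 6 weeks, expanded with the growth factor M-CSF and then kept for 5 days with 30 ng/ml RANKL, the cytokine that turns these precursors into bone-resorbing osteoclasts. The 3 control libraries received no mogrol, and the 3 mogrol libraries received 20 μM mogrol, the aglycon of the mogrosides of Siraitia grosvenorii, throughout the 5 days. Mogrol was dissolved in DMSO, and whether the control cultures for RNA-seq received DMSO is not given in the sources used here. Nor is it given whether the libraries of a group came from separate mice or cultures, so their spread may be partly technical.

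Nrcam encodes a cell adhesion molecule of the L1 immunoglobulin family, which binds ankyrin at the axon initial segment and helps to gather sodium channels at nodes of Ranvier. Stmn2 encodes stathmin-2 (SCG10), a membrane-bound protein of growth cones that binds tubulin and regulates the assembly and disassembly of microtubules. Adgrb1 encodes BAI1, an adhesion G protein-coupled receptor with thrombospondin repeats, first described as an inhibitor of angiogenesis in the brain. In phagocytes BAI1 binds phosphatidylserine on apoptotic cells and signals through ELMO, DOCK and RAC to the actin cytoskeleton, and it also takes part in the fusion of myoblasts. Osteoclasts form by fusion of macrophage precursors and are rich in dynamic microtubules and actin.

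Nrcam and Stmn2 were higher in mogrol-treated cells and Adgrb1 was lower. Nrcam had a 4.79-fold higher mean level with mogrol, Stmn2 a 7.75-fold higher mean level, and Adgrb1 a 9.28-fold lower mean level. These folds compare mean RPM, the reads of a gene per 1000000 reads of its library. Library totals, recovered from the reads, lengths and FPKM in the table, ran from 18097882 to 18652439 reads. Stmn2 and Adgrb1 had few reads at this depth, and Nrcam had about as many as the middle of the table. The mean per library over all 6 was 189.8 reads for Nrcam, 31 for Adgrb1 and 17.3 for Stmn2, against a median of 201 over the table. Only 2 genes of the table had fewer reads than Stmn2.

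Nrcam (ENSMUSG00000020598) lies on the plus strand of chromosome 12 at 44328885 to 44601964 (GRCm38). It is a long gene of 273080 bases, and its exons together cover 13358 bases, the longest exonic length in the table. Control libraries 1, 2 and 3 held 71, 65 and 62 Nrcam reads. Mogrol libraries 1, 2 and 3 held 286, 341 and 314. Every mogrol library was above every control library, and the closest pair still differed 4.03-fold in RPM. Control cells had a mean of 3.57 ± 0.228 RPM, and with mogrol the mean was 17.1 ± 1.69 RPM (SD, n = 3). On the log2 scale the fitted change was 2.26 with a standard error of 0.17. Of the 3 genes Nrcam had the most reads, and its control libraries differed by less than counting alone would give, with an SD of 4.58 reads against 8.12 for counting. In mogrol libraries the SD was 27.5 reads against 17.7 for counting. An SD from 3 libraries is too uncertain to tell either spread from counting error.

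Stmn2 (ENSMUSG00000027500) lies on the plus strand of chromosome 3 at 8509360 to 8561606 (GRCm38), with exons that cover 5602 bases. The control libraries held 5, 5 and 2 Stmn2 reads. The mogrol libraries held 27, 30 and 35. The groups did not overlap, but the control level rested on 12 reads in all. It was 0.216 ± 0.0919 RPM, and with mogrol the mean was 1.67 ± 0.223 RPM (SD, n = 3). The pooled reads gave a ratio of 7.72, and its 95% exact binomial interval ran from 4.22 to 15.5. Such intervals cover counting error only, since reads without molecular identifiers are not independent molecules. The fitted log2 fold change was 2.91 with a standard error of 0.44, the widest of the table. Because control library 3 held 2 reads, leaving it out moved the log2 fold change to 2.61, whereas leaving out either of the others moved it to 3.10 and 3.09.

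Adgrb1 (ENSMUSG00000034730) lies on the plus strand of chromosome 15 at 74516195 to 74589465 (GRCm38), with exons that cover 7222 bases. The control libraries held 51, 53 and 64 Adgrb1 reads. The mogrol libraries held 5, 5 and 8. The lowest control library was 6.32-fold above the highest mogrol library in RPM. Control cells had a mean of 3.04 ± 0.416 RPM, and with mogrol the mean was 0.327 ± 0.0937 RPM (SD, n = 3). The mogrol level rested on 18 reads in all, and the pooled ratio of 9.26 had a counting interval (95%, exact binomial) from 5.69 to 16.01. The fitted log2 fold change was -3.19 with a standard error of 0.36. For both Stmn2 and Adgrb1 the SD between libraries of a group stayed below that of counting alone in either condition, for example 1.73 against 2.45 reads for Adgrb1 with mogrol. Reads from a whole culture cannot tell fewer cells carrying a transcript from less transcript per cell.

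**Figure D1:**
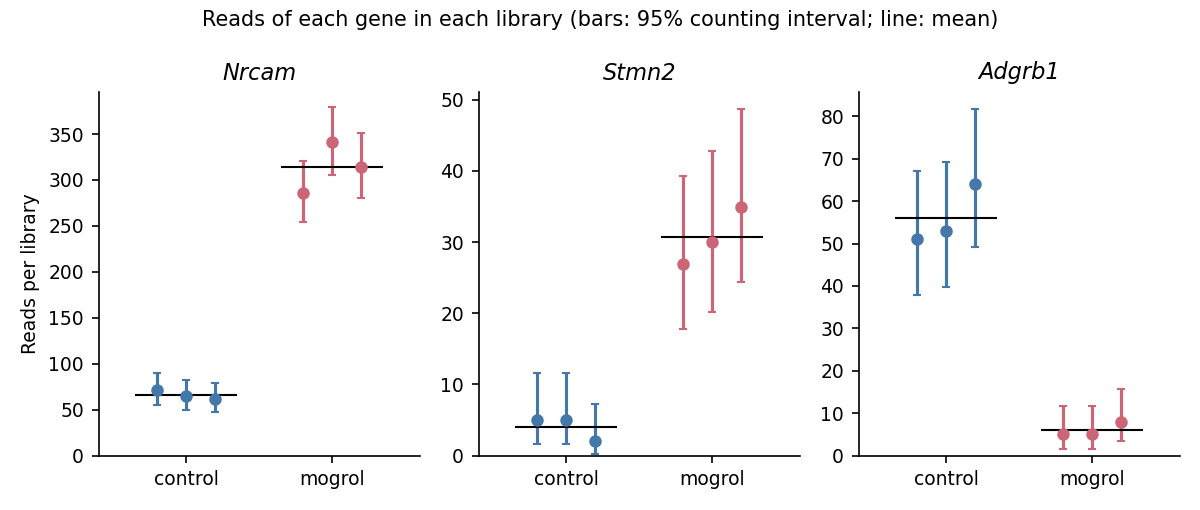
Reads per library of Nrcam, Stmn2 and Adgrb1 on linear axes that start at 0, with control libraries in blue and mogrol libraries in red, in the order of replicates 1 to 3. Bars are 95% Poisson intervals of each count and black lines are group means; mogrol libraries lie at 286 to 341 against 62 to 71 reads for Nrcam and at 5 to 8 against 51 to 64 reads for Adgrb1.

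Compared per length, Adgrb1 was the highest of the 3 genes in control cells and the lowest with mogrol, and Nrcam was above Stmn2 in both. FPKM, which is RPM per kilobase of exon, was recalculated from the reads since the deposited values carry 2 decimals. In control cells Adgrb1 was the highest of the 3 at 0.42 ± 0.0576 FPKM, Nrcam followed at 0.268 ± 0.0171 and Stmn2 was lowest at 0.0385 ± 0.0164 (SD, n = 3). In mogrol-treated cells Nrcam was highest at 1.28 ± 0.127 FPKM, Stmn2 followed at 0.299 ± 0.0399 and Adgrb1 was lowest at 0.0453 ± 0.013 (SD, n = 3). No neighbours in either order overlapped between libraries. By mean deposited FPKM, Stmn2 was the lowest of the 109 genes in control cells and Adgrb1 the lowest in mogrol-treated cells. The table medians were 2.937 FPKM without and 3.003 FPKM with mogrol. One Stmn2 read is worth 0.00957 to 0.00986 FPKM, so the deposited Stmn2 values of 0.05, 0.05 and 0.02 in control libraries are the 5, 5 and 2 reads after rounding. One Adgrb1 read is worth 0.00742 to 0.00765 FPKM, and its deposited mogrol values were 0.04, 0.04 and 0.06.

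Ratios of reads within a library depend on no scaling between libraries. For each Adgrb1 read, the control libraries held 1.39, 1.23 and 0.969 Nrcam reads. The mogrol libraries held 57.2, 68.2 and 39.25 Nrcam reads for each Adgrb1 read. These ranges were far apart, so the 2 genes changed unequally whatever the library sizes, although the ratio alone does not say which of them moved. Between the 2 genes that were higher the ratio moved less. There were 14.2, 13 and 31 Nrcam reads for each Stmn2 read without mogrol and 10.6, 11.4 and 8.97 with it. The highest of the control ratios is the library with 2 Stmn2 reads.

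In GENCODE M21 the exons of Nrcam, Stmn2 and Adgrb1 cover the same number of bases as the deposited lengths. Nrcam is overlapped by Gm48181 and Gm48182, both on the same strand and within its introns, and they share 0 exonic bases with it. No annotated gene overlaps Stmn2. Adgrb1 is overlapped on the same strand by the miRNA gene Gm26117, which shares 95 exonic bases or 1.32% of the Adgrb1 exons. No gene on the opposite strand overlaps any of the 3, so counting with or without strand would face no annotated antisense partner. The annotation holds 17 transcripts of Nrcam, 4 of Stmn2 and 12 of Adgrb1, and counts per gene do not say which were present.

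Set against the table, the 3 genes stood at its ends. In edgeR's quasi-likelihood fit to all 109 genes Stmn2 had the highest log2 fold change, Nrcam the third highest and Adgrb1 the lowest. The genes next in order to Nrcam and to Adgrb1 lay within the standard errors of these 2, so their ranks are not exact. The gene next below Stmn2 was at 2.32 with a standard error of 0.23. Stmn2 itself had a standard error of 0.44, so its first place is uncertain as well. The median was 1.31 over the 45 genes that were higher and -1.41 over the 64 that were lower. All 3 passed an adjusted p-value of 0.05 with an absolute log2 fold change above 1, as did 98.2% of the table (41.3% called higher and 56.9% called lower), and nothing is read from that count because the table was selected on it. Likewise the libraries of the 2 conditions did not overlap for 100% of the table's genes, 41.3% being higher and 58.7% lower. The calls were 45 higher and 62 lower on library totals, 45 and 30 with TMM computed on the selected genes, and 45 and 8 with DESeq2's own size factors on them. The standard error of Nrcam ranked 53 of 109 from the highest, near the table median of 0.16, whereas Stmn2 ranked 1 and Adgrb1 6.

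**Figure D2:**
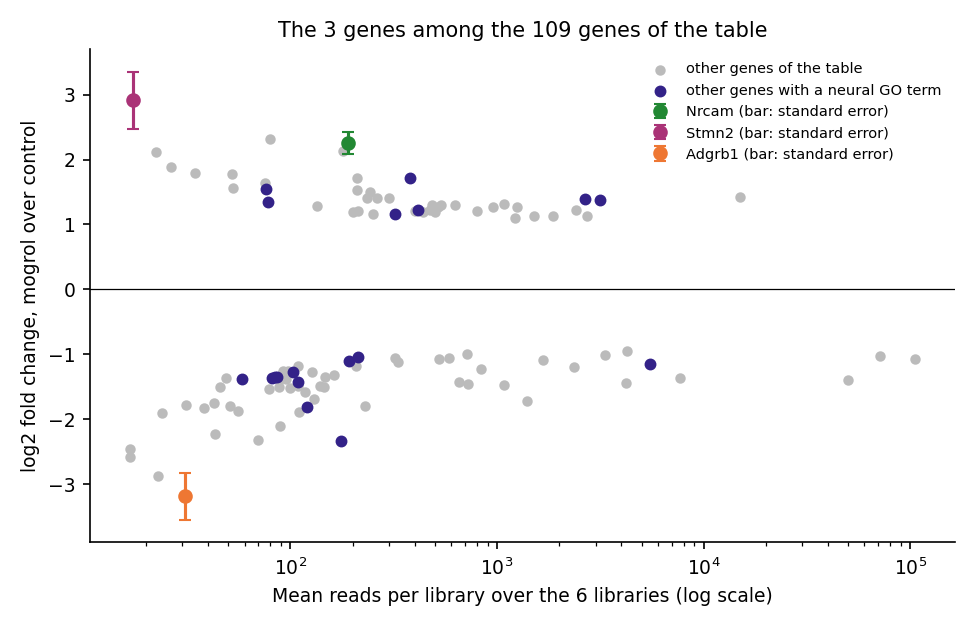
Log2 fold change (mogrol over control) against mean reads per library on a log axis for the 109 genes of the table, with the 3 genes in colour with standard error bars and other genes carrying a neural GO term in dark blue. Stmn2 at 2.91 and Adgrb1 at -3.19 lie at the top and bottom among the genes with few reads, and Nrcam at 2.26 lies near the middle of the read counts.

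The deposited Gene Ontology (GO) columns gave 21 of the 109 genes a neural term, the 3 genes included. A neural term was any with neuro, nervous, axon, synap, dendrite or growth cone in its wording, except immunological synapse. This is a broad rule, under which Adgrb1 qualified only by neuropeptide signalling and Clic5 only by a neuromuscular process. Of these 21, 9 were higher and 12 lower by the same limits, with a median log2 fold change of -1.10. Of these 21 genes 42.9% were higher, against 41.3% of all 109, whose median was -1.09, so neither the share nor the median sets the neural terms apart. The count of 12 fell to 3 with that TMM scaling and to 2 with those DESeq2 size factors, while the count of genes higher was 9 in both.

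Among the 9 that were higher, Stmn2 carries terms for neuron projection development and the growth cone, and Nrcam for axon guidance, the axon initial segment and the synapse. The next largest was Spn, which encodes the leukocyte sialoglycoprotein CD43, at 1.71 with a standard error of 0.13. Cx3cr1, the fractalkine receptor of monocytes and microglia, had a mean of 80.0 ± 15.8 RPM without mogrol against 209 ± 14.7 RPM with it (SD, n = 3). Cybb, a subunit of the phagocyte NADPH oxidase, had a log2 fold change of 1.37. Spn, Cx3cr1 and Cybb are known as genes of myeloid cells that also carry a neural term. Sema4a, a semaphorin gene, was at 1.16 and Cnr2, a cannabinoid receptor gene, at 1.35.

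Among the 12 that were lower, Adgrb1 was followed by Corin, a membrane protease gene, with a log2 fold change of -2.33 and a standard error of 0.18. Nrep, named for neuronal regeneration, had a mean of 10.1 ± 1.89 RPM without mogrol against 2.88 ± 0.686 RPM with it (SD, n = 3). Rims2, which regulates exocytosis of synaptic vesicles, had 112 to 146 reads per control library against 43 to 55 with mogrol, and its log2 fold change was -1.34. Ncald, a neuronal calcium sensor, was at -1.10. Sntb1, Thy1, Heyl, Tnn, Thbs2 and Clic5 ran from -1.43 to -1.04, of which Thy1, Tnn and Thbs2 encode proteins of the surface or matrix of connective tissue cells.

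**Figure D3:**
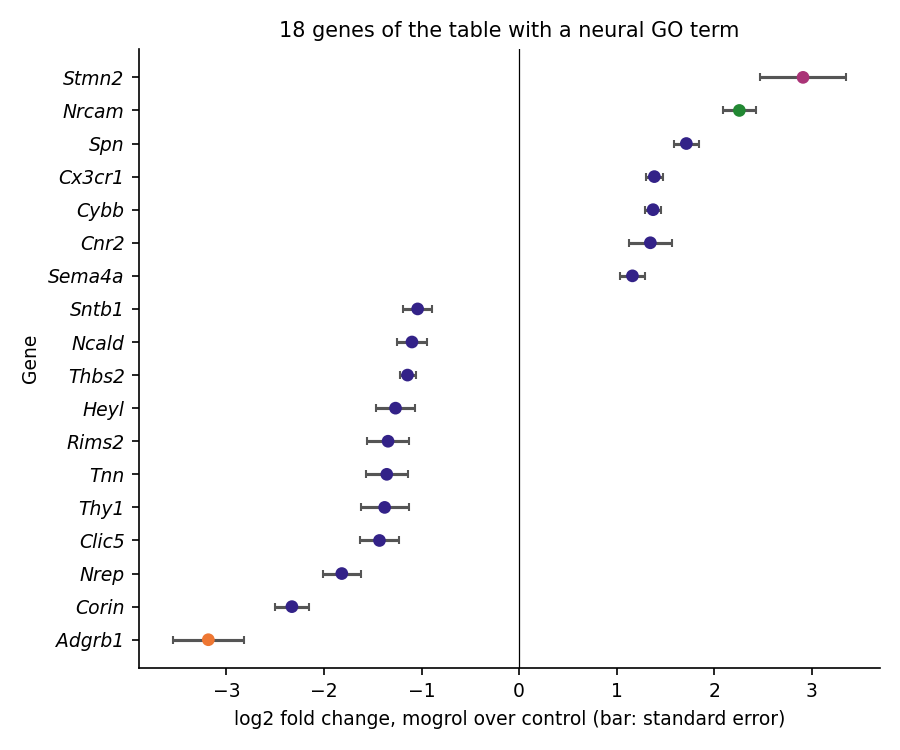
Log2 fold changes (mogrol over control) of 18 of the 21 genes of the table with a neural GO term, with standard errors as bars and 1 gene per row. The 7 genes on the right run from 1.16 to 2.91 and the 11 on the left from -3.19 to -1.04, with Stmn2, Nrcam and Adgrb1 at the ends.

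The 3 genes had little annotation in common. Nrcam carried 14 GO terms, of which 2 were shared with either of the others, and Stmn2 carried 13 with 1 shared. Of the 6 terms of Adgrb1, 3 were shared, namely plasma membrane and integral membrane component with Nrcam and protein binding with Stmn2. Terms for cell adhesion were held by 13 genes of the table, 6 higher and 7 lower, with Nrcam the largest increase. Terms for angiogenesis were held by 8, 4 higher and 4 lower, and these include both Nrcam and Adgrb1. Microtubule terms were held by 2 genes, Stmn2 and Ncald, which moved in opposite directions. Terms for G protein-coupled receptors were held by 8, again 4 in each direction, with Adgrb1 the largest decrease. The share of genes higher was 46.2% for adhesion and 50% for each of the other 3 terms, against 41.3% of all 109 genes, and with so few genes these shares do not set the terms apart.

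Few relatives and partners of the 3 genes were in the table. Of 16 genes of the L1 family and its partners, 11 stathmins and neuronal microtubule genes and 18 adhesion G protein-coupled receptors, only Nrcam, Stmn2 and Adgrb1 themselves were present. The others were not analysed here. Of 23 genes for the uptake of apoptotic cells, Adgrb1 and Dock2 were present. Dock2, the leukocyte relative of the RAC activator that works with ELMO, moved the other way, with a mean of 51.6 ± 5.19 RPM without mogrol and 113 ± 4.64 RPM with it (SD, n = 3). The 5 genes with a phagocytosis term in the deposited columns, Clec7a, Fgr, Fcgr3, Slc11a1 and Dock2, were all higher, between 1.13 and 1.53, and Adgrb1 carried no such term there. Of all 109 genes, which were selected on this contrast, 41.3% were higher, so nothing is read from the 5. Of 17 genes on a list made for osteoclast and macrophage fusion, Adgrb1 alone was present. The table holds selected genes only, so absence from it does not mean that the other genes were unchanged. The paper reports lower expression of some of them with mogrol.

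Markers of several cell types were among the selected genes of the table. Of all 109 genes 41.3% were higher and 58.7% lower, so nothing is read from the direction of these markers. Of 14 osteoclast markers the table held Ctsk and Ckb, whose summed level was 12507 to 13966 RPM per control library against 6117 to 6460 RPM with mogrol. Of 14 macrophage markers it held Fcgr3, Cybb and Clec7a, summing to 105 to 136 RPM without and 288 to 306 RPM with mogrol. Of 24 stromal markers it held Col3a1, Col6a2, Postn, Igfbp5 and Thy1, summing to 1196 to 1263 RPM without and 484 to 529 RPM with mogrol. Igfbp5 was just short of the 2-fold limit, with a log2 fold change of -0.99. The part of these cell types in the levels of Nrcam, Stmn2 and Adgrb1 was not tested. None of 17 neuron markers, such as Tubb3 and Snap25, and none of 10 markers of glia and Schwann cells was a row of the table, which holds selected genes only and so says nothing of their levels.

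Over the 6 libraries the log2 RPM of Nrcam ran most like that of Cnr2 (r = 0.998), Ptger4 (r = 0.997), a prostaglandin E2 receptor gene, and Hvcn1 (r = 0.995), a proton channel gene. Stmn2 ran most like Itgax (r = 0.988), the integrin CD11c, Clec7a (r = 0.987), the receptor Dectin-1, and Gpr84 (r = 0.986). Adgrb1 ran most like the collagen genes Col6a2 (r = 0.999) and Col3a1 (r = 0.997), followed by Iigp1 (r = 0.995), an interferon-inducible GTPase. These are Pearson correlations over libraries that fall into 2 groups by condition and share their depth. The median over all genes of the same direction was already 0.977 for Nrcam, 0.954 for Stmn2 and 0.966 for Adgrb1, so the order of the nearest genes rests on small differences between libraries of one condition.

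Nrcam and Stmn2 stayed higher and Adgrb1 lower under every setting that gave them a value. The size of the change depended on how low values were treated and on how libraries were scaled. The genes were selected on this contrast, so a steady direction is no test of it. With DESeq2's own size factors, computed on the selected genes, the log2 fold changes without shrinkage were 3.24 for Nrcam, 3.93 for Stmn2 and -2.23 for Adgrb1. When limma was run on log2(FPKM + 1) the log2 fold change was 0.85 for Nrcam, 0.32 for Stmn2 and -0.44 for Adgrb1. With 0.1 added in place of 1 the values were 1.91, 1.52 and -1.82. Since Nrcam has the higher FPKM, it then became larger than Stmn2, whereas in the fits to counts Stmn2 was the larger.

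**Figure D4:**
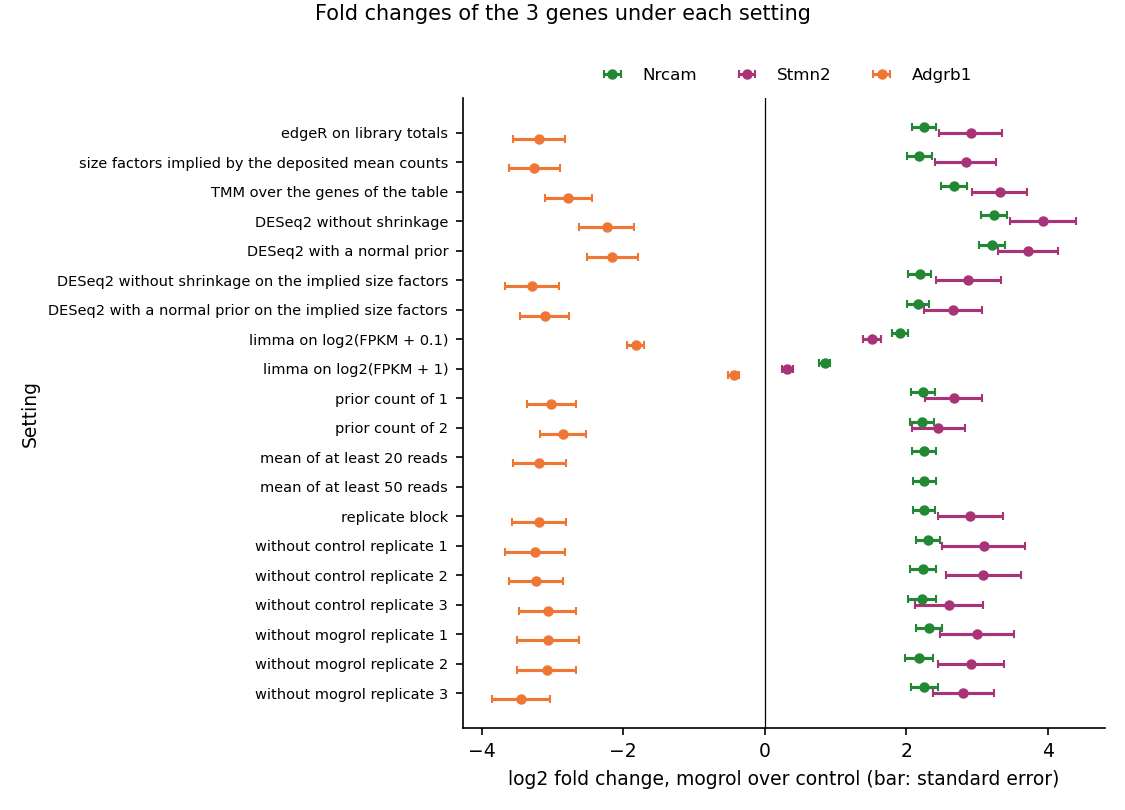
Log2 fold changes (mogrol over control) of Nrcam, Stmn2 and Adgrb1 under each setting, 1 setting per row, with standard errors as bars. All points of Nrcam and Stmn2 lie above 0 and all points of Adgrb1 below it, and the points closest to 0 are those of limma on log2(FPKM + 1).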

How the data were processed

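The authors sequenced RNA of 3 control and 3 mogrol libraries. Per the labels, reads were trimmed with cutadapt 1.9.1, aligned to GRCm38 with HISAT2 2.0.1 and counted with HTSeq 0.6.1. The deposited table holds raw read counts, and FPKM values rounded by the authors to 2 decimals. The deposited mean normalized count is a signal averaged over libraries with the authors' DESeq2 size factors. Columns with the authors' own log2 fold changes, standard errors, test score, p-values and adjusted p-values were not used. Library totals were recovered from counts, lengths and FPKM. They fix counting precision, which is low for Stmn2 and Adgrb1.

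Counts of all 109 genes were fitted with edgeR 4.0.16 (R 4.3.3, glmQLFit and glmQLFTest, library totals, no filter, Benjamini-Hochberg adjustment). The procedure was also run on simulated counts with unchanged genes and equal numbers changed up and down, unlike this table of selected genes. Standard errors were taken as the absolute log2 fold change over the root of the F statistic. The calls use an adjusted p-value of 0.05 and an absolute log2 fold change of 1. Libraries of a group differed by more than sampling noise (chi-square per degree of freedom 5.23 to 19.6), so each counted as 1 sample.

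The members and gene lists were chosen with earlier results of these data known. Genes named are the 3 members, for each the 3 genes with the highest correlation of log2 RPM (0.5 read added), genes with a neural GO term (3 of them are counted but not reported singly here), and list members present in the table. Alternatives were other size factors, TMM, DESeq2 1.42.0, limma 3.58.1 on FPKM, other prior counts, filters on mean reads, a block for replicate number, and leaving out single libraries. Gene models were taken from GENCODE M21 (GRCm38).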

Additional observations from a re-analysis of the deposited data

How the results depend on the processing

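TMM and DESeq2's size factors, computed on a table of selected genes, recentre it, and they moved the median log2 fold change of all genes by 0.42 and 0.98. With TMM, Nrcam was at 2.68 and Adgrb1 at -2.77, with 30 genes of the table lower and 3 of those with a neural term. DESeq2 on its own size factors gave 3.24 for Nrcam, 3.93 for Stmn2 and -2.23 for Adgrb1 without shrinkage and 3.21, 3.73 and -2.15 with a normal prior, with 8 genes lower and 2 with a neural term in both. The genes higher stayed at 45 in these settings, against 45 higher and 62 lower on library totals. Limma on log2(FPKM + 0.1) gave 1.91, 1.52 and -1.82 for Nrcam, Stmn2 and Adgrb1. Limma on log2(FPKM + 1) gave 0.85, 0.32 and -0.44, left 25 genes higher and 27 lower, 3 and 3 with a neural term, and none of the 3 genes was past the 2-fold limit, because the added 1 exceeds most of their FPKM values. With the size factors implied by the deposited mean counts the 3 values were 2.19, 2.84 and -3.26. DESeq2 on those factors, chosen after seeing the data, gave 2.19, 2.88 and -3.28 without shrinkage and 2.17, 2.66 and -3.11 with a normal prior. A prior count of 2 gave 2.23, 2.45 and -2.85. Filters at a mean of 20 and 50 reads removed Stmn2, and the filter at 50 also Adgrb1, so they gave no value there.

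With each library left out in turn, Nrcam ranged from 2.18 to 2.33, Stmn2 from 2.61 to 3.10 and Adgrb1 from -3.44 to -3.07. In the fit with a replicate block the values were 2.26, 2.91 and -3.19, with 45 genes higher and 62 lower. Deviations of same-numbered libraries correlated at 0.0875, 0.213 and 0.072 across genes, and the libraries were treated as unpaired.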
